A study of Mus musculus with 4 samples.

Results

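The genes described here are 10 parts of the Notch pathway: the receptors Notch1 and Notch2, the ligands Jag1, Jag2, Dll1 and Dll4, the transcription factors Hes1 and Hes6, and Nrarp and Dtx4. They were chosen by name, with earlier results of these data known. All array probe sets annotated to them were taken, a probe set being a group of short probes that together read 1 transcript. The platform annotation gave 15 probe sets to 9 of the 10 genes, out of 17097 genes with a probe set of their own. Jag2 was not analysed here. All 9 genes passed the filter on dim genes, which 11874 genes passed in all.

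RNA came from mouse colon adenoma organoids on a C57BL/6 background, which are tumour epithelium cultured in 3D, and was read on 4 Affymetrix arrays. The 2 arrays labelled Gata6 null/Apc null came from VillinCreERT2 Gata6 fl/fl Apc fl/fl organoids, and the 2 labelled Apc null from VillinCreERT2 Gata6+/+ Apc fl/fl organoids. Both groups therefore lack Apc, the suppressor of Wnt signalling, per the labels, and differ in Gata6, which encodes a GATA-binding factor of gut endoderm. The Cre recombinase is inducible and driven by the Villin promoter, which is active in intestinal epithelium. All cultures had 7 days in a medium with 50 ng/ml EGF, and 10 µM Rock inhibitor is given for all 4. The array titles carry a letter, A or B, read here as 2 batches that each hold 1 array per genotype. The replicates are called biological in the design text, with no statement of how many mice they came from, so the p-values may cover only the spread between cultures.

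The brighter Gata6 probe set read 9.37 and 9.40 on arrays labelled Gata6 null/Apc null, against 8.89 and 8.61 on Apc null arrays, and the other 9.11 and 9.21 against 8.83 and 8.65. Both were thus higher, not lower, by 0.64 and 0.42 log2 units. Whether they lie inside the deleted exons is unknown here. They therefore give no check of the genotypes, and every direction rests on the labels. All 8 markers of intestinal epithelium were above the filter level of 4.45 log2 units on every array, at 7.29 to 12.14. Their levels were not equal between the groups. All 8 had lower means on arrays labelled Gata6 null/Apc null, by -0.01 (Epcam) to -1.57 (Cdx2). In 6 of the 8 the groups did not overlap, against 32.0% of all genes tested. Cdx2 read 7.29 and 8.11 against 9.13 and 9.41. Of the fibroblast markers 6 of 8, and of the endothelial markers 5 of 8, were under that level on average. Arrays correlated at 0.963 to 0.979 over probe sets, and their medians were 4.91 to 5.04.

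Notch signalling passes between touching cells. A ligand of the Jagged or Delta-like family on 1 cell binds a Notch receptor on its neighbour, proteases then release the intracellular part of the receptor, and this part joins the DNA-binding protein RBPJ to switch on targets such as Hes1 and Nrarp. In the intestinal crypt, HES1 represses Atoh1, the factor that commits cells to the secretory lineages, so cells with active Notch stay progenitors or become absorptive while their Delta-expressing neighbours become secretory. In intestinal adenomas with an activated Wnt pathway, Notch is known as a signal that helps keep cells undifferentiated.

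The Notch genes did not move as a block. On arrays labelled Gata6 null/Apc null, Notch1 and Hes6 had higher values than in the Apc null arrays, and the ligands Jag1 and Dll1 had lower ones. The receptor Notch2, the ligand Dll4 and the classical target Hes1 differed by 0.04, -0.25 and -0.33 log2 units on average. With genotype as the single term, no member of the 9 reached an adjusted p under 0.05 in limma, a linear model with moderated variances fitted across all 11874 genes. Over all genes 0.648% passed, 0.522% as higher and 0.126% as lower. Before adjustment 4 of the 9 had a limma p under 0.05, against 7.97% of all genes. With the batch letter as a block, 5 of the 9 (55.6%) passed, against 6.88% of all genes. Notch1 and Hes6 passed as higher, as did 3.91% of all genes, and Jag1, Dll1 and Dtx4 as lower, as did 2.97%. Of the 15 probe sets, tested among all probe sets, none passed in limma with genotype alone (0.129% of all did) and 5 passed with the block (3.24% of all did): 1 of Notch1, 2 of Jag1 and 2 of Hes6. No probe set of Dll1 or Dtx4 passed among all probe sets. The block fit compares the arrays within each batch and has 1 residual degree of freedom, so its calls rest on little information about the spread. On simulated data its false calls ran above the nominal rate, which bears on all 5 calls. The median difference of the 9 genes was -0.33, against -0.03 over all genes tested, and the median absolute difference was 0.58 against 0.16. Because the genes were chosen with earlier results of these data known, these shares and medians are a description and not a test. In organoids, which mix cell states, fewer cells of a type and less RNA per cell cannot be told apart.

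**Figure D1:**
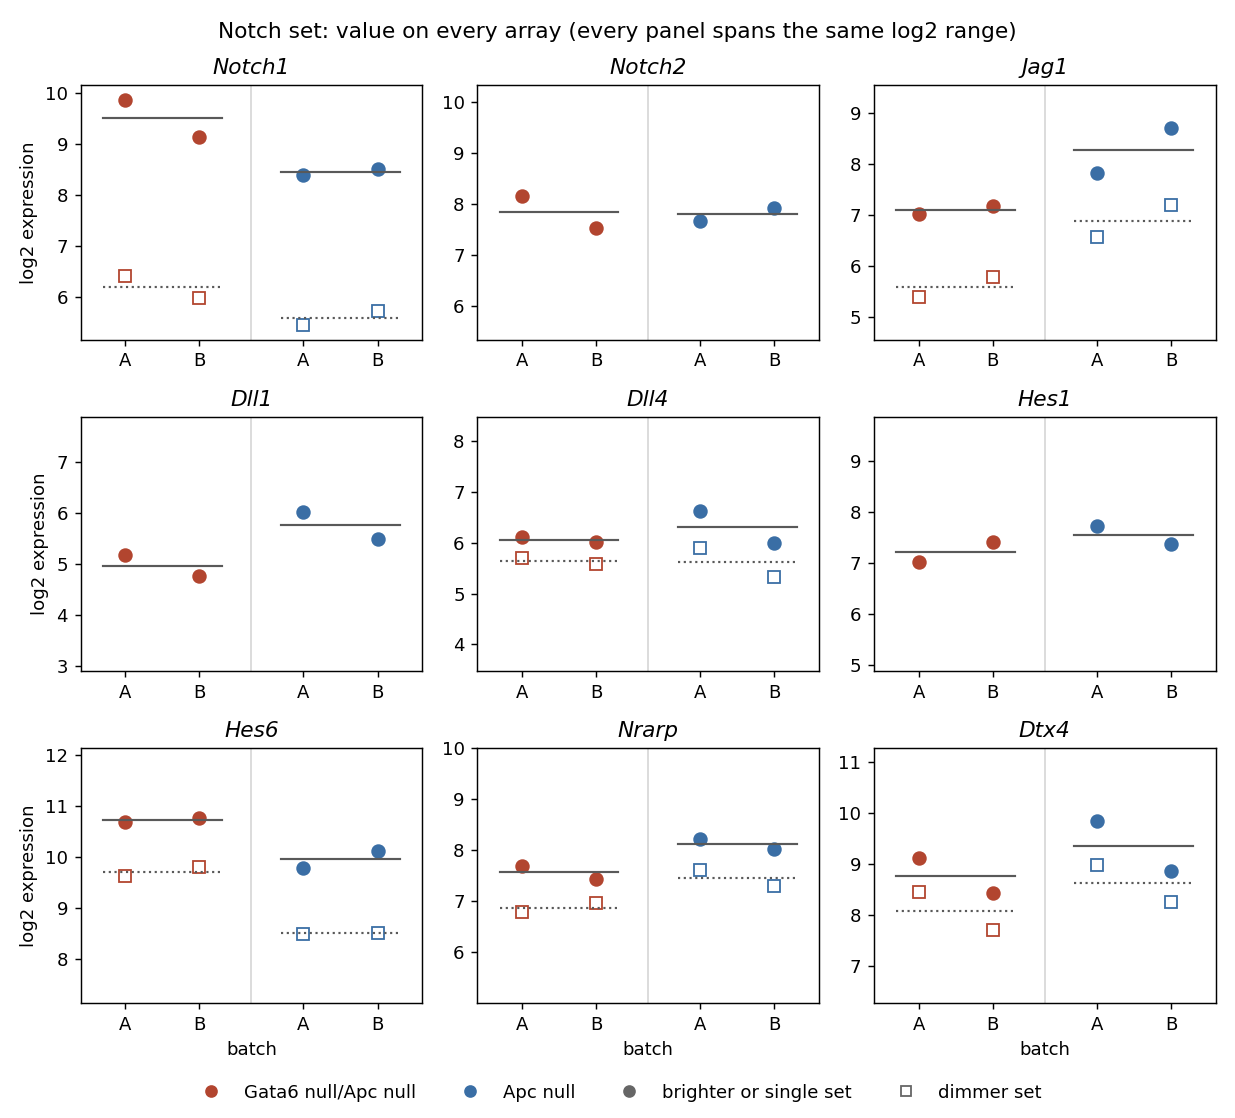
Log2 expression of the 9 Notch genes on every array, with batch on the horizontal axis, arrays labelled Gata6 null/Apc null on the left of each panel and Apc null on the right. Filled circles are the brighter or single probe set, open squares the dimmer one, and lines the group means of 2 arrays; for Hes6 both circles on the left, at 10.68 and 10.77, lie above both on the right, at 9.78 and 10.12.

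The sequences just upstream of 4 of the genes that passed with the block are shown because these genes carry the differences. The windows are from RefSeq for mouse GRCm38.p6 and run from 250 bases before to 50 bases after a transcription start. They are written 5′ to 3′ along the gene, with capitals for CAGCTG, a core of the E-box bound by basic helix-loop-helix factors such as ATOH1.
Notch1, chr2:26503773-26504072, minus strand: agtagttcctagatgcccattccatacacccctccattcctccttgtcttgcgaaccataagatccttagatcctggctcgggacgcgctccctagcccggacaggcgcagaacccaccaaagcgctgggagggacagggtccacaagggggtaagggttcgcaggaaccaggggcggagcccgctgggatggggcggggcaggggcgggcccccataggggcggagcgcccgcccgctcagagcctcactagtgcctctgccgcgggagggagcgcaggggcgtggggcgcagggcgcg
Jag1, chr2:137116471-137116770, minus strand: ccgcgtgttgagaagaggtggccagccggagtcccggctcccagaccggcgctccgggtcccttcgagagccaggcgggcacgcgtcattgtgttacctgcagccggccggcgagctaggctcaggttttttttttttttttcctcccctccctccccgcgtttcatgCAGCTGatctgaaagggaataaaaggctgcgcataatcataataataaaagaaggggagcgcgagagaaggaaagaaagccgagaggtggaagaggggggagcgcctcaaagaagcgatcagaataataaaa
Dll1 start 2, chr17:15376883-15377182, minus strand: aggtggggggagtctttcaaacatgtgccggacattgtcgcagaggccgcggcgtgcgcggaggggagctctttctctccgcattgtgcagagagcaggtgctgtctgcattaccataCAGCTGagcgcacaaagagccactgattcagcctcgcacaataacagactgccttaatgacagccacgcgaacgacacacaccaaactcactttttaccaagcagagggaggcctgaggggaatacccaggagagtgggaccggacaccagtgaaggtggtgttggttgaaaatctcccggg
Hes6 start 1, chr1:91413989-91414288, minus strand: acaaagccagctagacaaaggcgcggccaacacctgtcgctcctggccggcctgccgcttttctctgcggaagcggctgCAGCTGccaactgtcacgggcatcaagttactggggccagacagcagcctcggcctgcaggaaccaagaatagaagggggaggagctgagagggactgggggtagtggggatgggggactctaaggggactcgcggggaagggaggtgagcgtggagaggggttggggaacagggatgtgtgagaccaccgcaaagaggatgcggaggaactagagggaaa
Hes6 start 2, chr1:91413173-91413472, minus strand: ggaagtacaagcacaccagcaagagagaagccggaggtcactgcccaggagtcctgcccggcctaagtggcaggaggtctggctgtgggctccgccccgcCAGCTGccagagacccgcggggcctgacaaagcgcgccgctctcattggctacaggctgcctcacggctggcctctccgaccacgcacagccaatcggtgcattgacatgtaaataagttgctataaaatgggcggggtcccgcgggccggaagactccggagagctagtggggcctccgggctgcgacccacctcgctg
Of the 10 listed genes, 8 matched the promoter table with 10 windows in all. Hes1 and Dtx4 had no entry there, so neither was searched for any motif. CAGCTG, which reads the same on both strands, occurred in 5 of the 10 windows, those of Jag1, 1 of the 2 Dll1 starts, both Hes6 starts and Nrarp, and in 16.3% of all windows of this length. It lay at positions -82 to -77 in Jag1, -132 to -127 in the Dll1 window, -171 to -166 and -150 to -145 in the Hes6 windows, and 33 to 38 in Nrarp. The RBPJ core TGGGAA was in none of the 10 windows on either strand, and in 25.6% of all windows. The GATA forms AGATAA or AGATAG or TGATAA or TGATAG were in none of the 10, and in 29.8% of all. The TCF and LEF forms CTTTGAA or CTTTGTT or CTTTGAT or CTTTGTA were likewise in none, and in 16.9% of all. CACGCG, a site of HES proteins, was in 5 of the 10 windows and in 9.27% of all. No match overlapped a match to another motif. The Dll1 window that is not printed, start 1, held no match to any of them. The 10 windows were 55.7% (Jag1) to 86% (Jag2) G or C, and the shares over all windows were not matched for this. The motifs were chosen after the values were seen. A match or its absence describes the letters of the window alone.

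Among the receptors, Notch1 was higher and Notch2 showed no steady difference. The brighter Notch1 probe set read 9.88 and 9.15 on the arrays labelled Gata6 null/Apc null, batch A first, against 8.39 and 8.52 on the Apc null arrays. Both values of the first group lie above both of the second, with the batch A array the highest. The difference was 1.06 log2 units (SE 0.29, 2.08-fold, group means 9.51 ± 0.52 and 8.46 ± 0.09, SD, 2 arrays each), with a limma adjusted p of 0.370, and of 0.0393 with the block. Leaving out Gata6 null/Apc null A gave 0.69. The dimmer Notch1 probe set read 6.41 and 5.99 against 5.45 and 5.73, again without overlap. Its difference was 0.61 (SE 0.28), and among all probe sets its limma adjusted p with the block was 0.321.

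Notch2, a receptor that acts redundantly with Notch1 in the mouse intestine, read 8.15 and 7.52 on arrays labelled Gata6 null/Apc null, against 7.67 and 7.92 in Apc null. The groups overlap, and the batch differences had opposite signs, 0.48 (A) and -0.40 (B). Its mean difference was 0.04 (SE 0.31, limma adjusted p = 1.00, and 0.960 with the block). The other 2 receptors are given for completeness, outside the rule for named genes. Notch3 read 5.64 and 7.99 against 5.63 and 7.66, with the batches far apart and the genotypes close. Notch4 read 5.73 and 6.40 against 6.40 and 6.59, a difference of -0.43 (SE 0.31, limma adjusted p = 1.00, and 0.327 with the block).

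Jag1, the Jagged-family ligand that is also a known Wnt target in colorectal tumours, had lower values in both of its probe sets. Its brighter probe set read 7.02 and 7.18 on arrays labelled Gata6 null/Apc null, against 7.82 and 8.71 in Apc null. The first group was tight and lay below both Apc null arrays, which were farther apart. The difference was -1.17 (SE 0.36, 2.25-fold lower, group means 7.10 ± 0.11 and 8.27 ± 0.62, SD, 2 arrays each), with a limma adjusted p of 0.444, and of 0.0299 with the block. Leaving out Apc null B gave -0.73. The dimmer Jag1 probe set read 5.39 and 5.78 against 6.57 and 7.19. Its difference of -1.29 (SE 0.33) had a limma adjusted p over all probe sets of 0.554, and of 0.0139 with the block. In both probe sets every Gata6 null/Apc null array lay below every Apc null array.

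Dll1, a Delta-like ligand made by secretory progenitors of the crypt, was lower at a dim level. Its single probe set read 5.17 and 4.76 on arrays labelled Gata6 null/Apc null, against 6.03 and 5.50 in Apc null. The groups do not overlap, although the lowest value, 4.76, is close to the filter level of 4.45. The difference was -0.80 (SE 0.27, 1.74-fold lower) and similar in the batches, -0.86 in A and -0.74 in B. The limma adjusted p was 0.532, and 0.0467 with the block. Among all probe sets the block call was lost (limma adjusted p = 0.0957).

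Dll4, the ligand that acts together with Dll1 in crypt stem cell maintenance in mice, read 6.10 and 6.01 on arrays labelled Gata6 null/Apc null, against 6.62 and 5.99 in Apc null. The groups overlap, and the difference came from batch A (-0.52, against 0.02 in batch B). The mean was -0.25 (SE 0.29, limma adjusted p = 1.00, and 0.622 with the block). The other Dll4 probe set differed by 0.03. It was the single case, among the 6 genes with 2 probe sets, where the pair differed in sign. Dll3, a divergent ligand, was near the filter level at 4.66 to 4.94 on the 4 arrays.

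**Figure D2:**
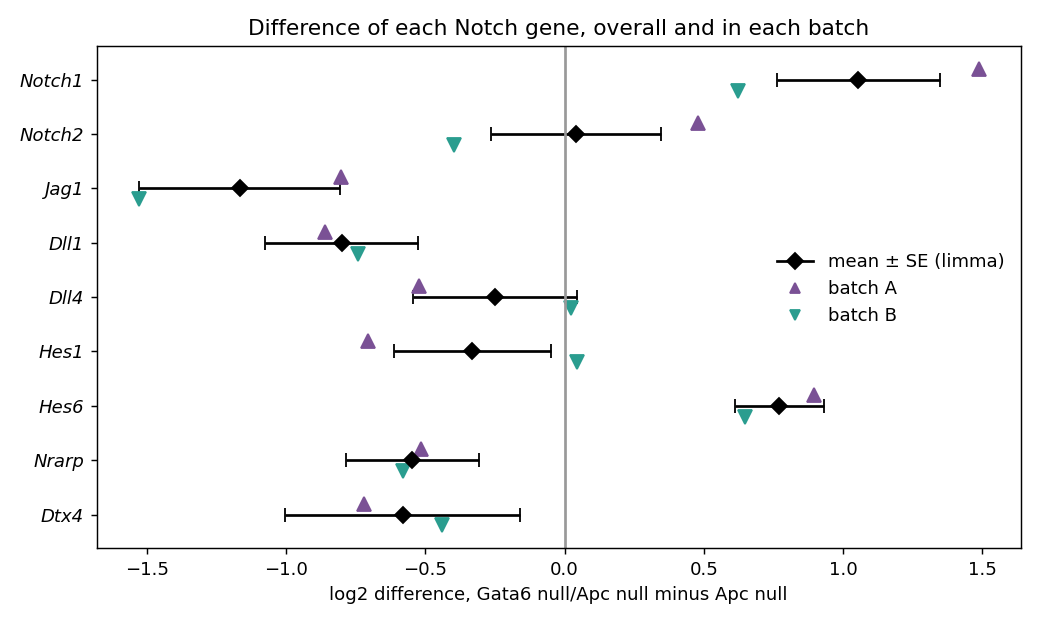
Log2 difference, Gata6 null/Apc null minus Apc null, for the 9 Notch genes, with diamonds and bars for the mean and its limma standard error and triangles for the difference within batch A and batch B. Notch1 and Hes6 lie right of 0 in both batches, Jag1, Dll1, Nrarp and Dtx4 left of 0 in both, and Notch2, Dll4 and Hes1 change side between batches.

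Of the Hes factors, Hes6 was higher and Hes1 was not clearly different. Hes1, the repressor that Notch induces in crypt progenitors, read 7.02 and 7.41 on arrays labelled Gata6 null/Apc null, against 7.72 and 7.37 in Apc null. The groups overlap, and the batch differences were -0.71 (A) and 0.04 (B). The mean difference was -0.33 (SE 0.28, limma adjusted p = 1.00, and 0.508 with the block).

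Hes6, a family member that antagonises HES1 in the mouse nervous system rather than acting as a Notch target, had the smallest adjusted p of the 9 genes. Its brighter probe set read 10.68 and 10.77 on arrays labelled Gata6 null/Apc null, against 9.78 and 10.12 in Apc null. All 4 values are bright, and the groups do not overlap. The difference was 0.77 (SE 0.16, 1.71-fold, group means 10.72 ± 0.06 and 9.95 ± 0.24, SD, 2 arrays each), with a limma adjusted p of 0.209, and of 0.00793 with the block. The other probe set read 9.62 and 9.80 against 8.50 and 8.51, a wider gap. Its difference of 1.21 (SE 0.18, 2.31-fold) had a limma adjusted p over all probe sets of 0.180, and of 0.00176 with the block. The name of the brighter probe set marks it as able to match shared sequence. The other is marked as matching several transcripts of a gene.

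The other Hes and Hey genes were mostly dim. Of the 9 genes in this family list, 6 were under the filter level on average: Hes2, Hes3, Hes5, Hes7, Hey2 and Heyl. Hey1, a further Notch-induced repressor and the remaining gene tested, is named outside the rule. It read 5.21 and 5.69 on arrays labelled Gata6 null/Apc null, against 4.79 and 4.87 in Apc null. Its difference of 0.62 (SE 0.22) did not pass (limma adjusted p = 0.572, and 0.116 with the block).

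Nrarp, an ankyrin repeat protein that Notch induces and that feeds back on the receptor complex, was lower without passing either fit. The brighter probe set read 7.70 and 7.44 on arrays labelled Gata6 null/Apc null, against 8.21 and 8.02 in Apc null. The groups do not overlap, and the batch differences were close, -0.51 (A) and -0.58 (B). The mean was -0.55 (SE 0.24, limma adjusted p = 0.727, and 0.0982 with the block). The dimmer probe set read 6.79 and 6.96 against 7.61 and 7.29, a difference of -0.58 (SE 0.26).

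Dtx4, of the Deltex family of ubiquitin ligases that act on Notch, differed more between batches than between genotypes. Its brighter probe set read 9.13 and 8.43 on arrays labelled Gata6 null/Apc null, against 9.85 and 8.87 in Apc null. Batch B was lower than batch A by 0.70 in the first group and 0.98 in the second, so the groups overlap, while each Gata6 null/Apc null array lies below the Apc null array of its batch. The difference was -0.58 (SE 0.42, limma adjusted p = 1.00), with an adjusted p of 0.0482 in the limma fit with the block. Leaving out Apc null A gave -0.09 and leaving out Apc null B gave -1.07. Leaving out Gata6 null/Apc null A gave -0.93 and leaving out Gata6 null/Apc null B gave -0.23. Among all probe sets the block call was lost (limma adjusted p = 0.0548). The other probe set differed by -0.55, or -0.54 (A) and -0.55 (B) within the batches. Among all probe sets its limma adjusted p with the block was 0.0947.

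**Figure D3:**
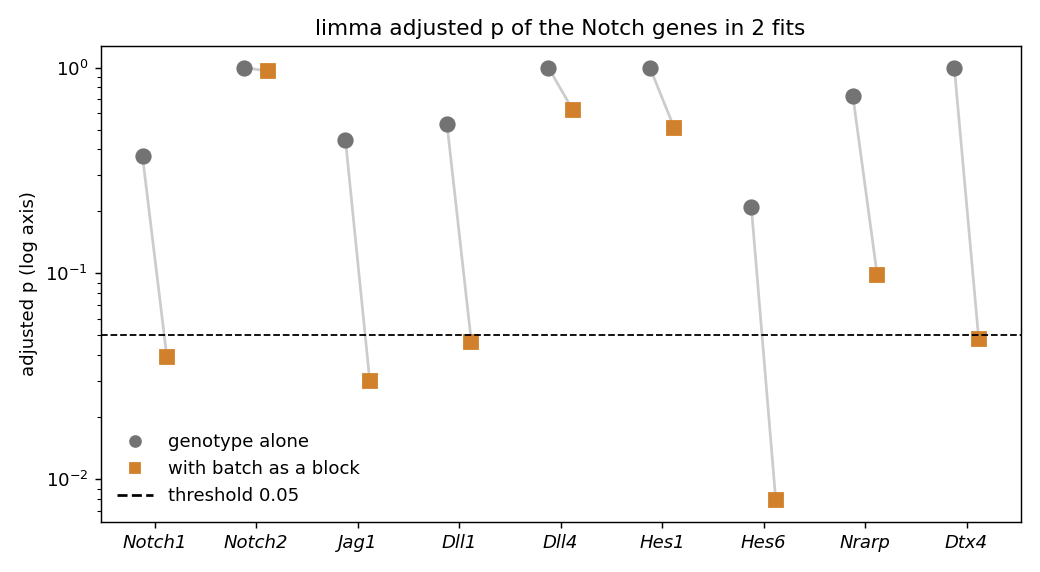
Adjusted p of the 9 Notch genes on a log axis, as grey circles for the limma fit with genotype alone and orange squares for the fit with the batch as a block, with the threshold of 0.05 as a dashed line. All 9 circles lie above the line, the lowest at 0.209 for Hes6, and 5 squares lie below it, the lowest at 0.00793 for Hes6.

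In 5 of the 9 genes, Notch1, Hes6, Jag1, Dll1 and Nrarp, the arrays of the groups did not overlap, against 32.0% of all genes tested. The first 2 were higher, as were 14.7% of all genes, and the other 3 lower, as were 17.3%. These shares too belong to genes chosen with earlier results known. Of the 9, 6 had the same sign in both batches. The shift between batches, batch B minus batch A averaged over the genotypes, had a median absolute size of 0.30 log2 units over the 9 genes and 0.25 over all genes tested. Of the 6 genes with 2 probe sets, 5 had the same sign in both.

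The other genes of the pathway gave no calls. Of 51 further pathway genes in the lists, 45 had a probe set and 35 were tested, with none past the threshold in limma in either direction (0.648% of all genes passed), and none with the block (6.88% of all). A single one, Hey1, had an unadjusted limma p under 0.05, against 7.97% of all genes. Their median difference was 0.02 and their differences ran from -0.51 to 0.69. Receptor processing, the ADAM proteases, furin and gamma-secretase, had a median of 0.02 over 9 genes. With genotype alone the smallest p was that of Furin, the convertase that cleaves the receptor in the secretory pathway, with -0.35 (SE 0.21, limma adjusted p = 0.957). With the block it was that of Aph1b, named outside the rule, with 0.69 (SE 0.43 with genotype alone). Its limma adjusted p was 0.972, and 0.0809 with the block. Glycosylation enzymes had a median of -0.12 over 5 genes, and the smallest p with genotype alone was that of Pofut1, which adds O-fucose to the receptor, with -0.51 (SE 0.24, limma adjusted p = 0.808). Lfng, a fringe glycosyltransferase named outside the rule, differed by 0.56 (SE 0.46, limma adjusted p = 1.00, and 0.124 with the block).

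Ligand endocytosis genes had a median of -0.05 over 4, with Neurl1a, a Neuralized-type ubiquitin ligase, at 0.15 (SE 0.16, limma adjusted p = 1.00). The transcription complex and its corepressors had a median of 0.11 over 5, with the corepressor Spen at -0.28 (SE 0.24, limma adjusted p = 1.00). Antagonists and turnover genes had a median of -0.0023 over 5, with Aak1, an endocytic kinase, at 0.36 (SE 0.18, limma adjusted p = 0.818). Of the atypical ligands 2 had a probe set, Dlk1 and Dner, and both were under the filter level.

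**Figure D4:**
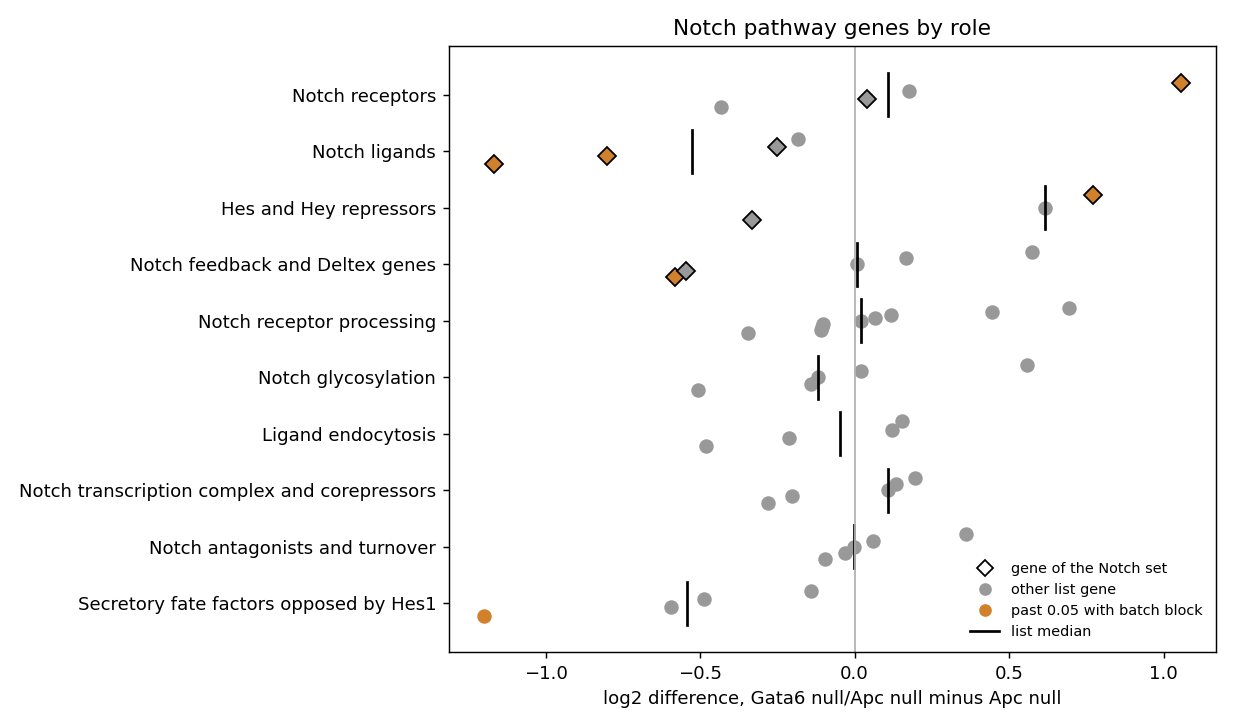
Log2 difference, Gata6 null/Apc null minus Apc null, for each tested gene of 9 lists of Notch pathway genes and 1 list of secretory fate factors, with diamonds for the genes of the Notch set, circles for others, orange for an adjusted p under 0.05 with the batch as a block and a bar for the list median. The list medians run from -0.54 for secretory fate factors, a list that also holds Ascl2, to 0.62 for Hes and Hey repressors. The 35 further pathway genes lie between -0.51 and 0.69.

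Factors of the secretory lineage, which HES1 opposes, had lower means or were dim. Of 7 listed genes, 4 were tested, and all 4 had negative differences, with a median of -0.54. These were Atoh1, Neurog3, Spdef and Ascl2. Ascl2 is not a secretory fate factor, and it differed by -0.14, with overlapping groups and a difference of 0.11 in batch B. Atoh1 read 6.78 and 6.18 on arrays labelled Gata6 null/Apc null, against 8.32 and 7.04 in Apc null. The groups do not overlap, and the Apc null array of batch A stands above the rest. The difference was -1.20 (SE 0.51, limma adjusted p = 0.707, and 0.0309 with the block). Within the batches it was -1.54 (A) and -0.86 (B). Summed marker levels of mature cell types are given beside it, and each sum can follow a few bright genes. The summed linear level of 7 goblet markers was 1738 and 2648 on arrays labelled Gata6 null/Apc null, against 4385 and 4383 in Apc null. Muc2 had no probe set of its own, and 3 of the 7, Clca1, Zg16 and Retnlb, were under the filter level. The sum follows Tff3, the brightest, which read 10.30 and 10.93 against 11.42 and 11.26. Tff3 passed neither fit (limma adjusted p = 0.453, and 0.0711 with the block). Spink4 was past the threshold (limma adjusted p = 0.0314), and Agr2 past it with the block (limma adjusted p = 0.00349). In Fcgbp the groups overlapped, at 8.13 and 8.74 against 9.23 and 8.72. The summed level of 8 enteroendocrine markers was 243 and 229 against 343 and 309, with Gcg and Cck under the filter level. Insm1, the single marker of that list past the threshold with the block (limma adjusted p = 0.0470), read 3.90 and 3.49 against 6.73 and 4.49, while Sct and Tph1 differed by 0.0039 and 0.08. That of 8 absorptive colonocyte markers was 603 and 1009 against 1536 and 3088, with 4 under the filter level. That sum follows Car1, which read 8.67 and 9.75 against 10.37 and 11.50. Car1 and Fabp2 were past the threshold as lower with the block alone (limma adjusted p = 0.000381 and 0.0270). Fabp2 was dim, at 4.27 and 3.96 against 5.07 and 4.71.

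The tuft cell list, with 7 markers measured, had summed levels of 854 and 997 on arrays labelled Gata6 null/Apc null, against 200 and 380 in Apc null. Its defining markers Dclk1, Trpm5, Pou2f3 and Gfi1b were under the filter level, and the sum follows Avil. Avil was past the threshold as higher with the block (limma adjusted p = 0.00467) and not with genotype alone (limma adjusted p = 0.140). Endothelial markers, of a cell type that also makes Dll4 and Notch1, summed to 165 and 181 against 169 and 172. Fibroblast markers summed to 142 and 135 against 141 and 141, and 7 immune markers to 188 and 340 against 329 and 453, with Ptprc, Cd3e and Itgam under the filter level. The part of these cell types in the differences of the Notch genes was not tested.

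For each gene past the threshold with the block, the 2 tested genes with the most similar profile were found by the Euclidean distance between mean-centred log2 values over the 4 arrays. For Hes6 they were Ptk7 and Thsd4, at distances of 0.04 and 0.05. For Dtx4 they were Myd88 (0.06) and Tmed5 (0.09), and for Dll1 Carmil1 and Phlda2 (0.10 each). For Jag1 they were Lpo (0.11) and Ly6g2 (0.24), and for Notch1 Fermt2 (0.20) and Mylip (0.25). With 4 arrays and 11874 genes, close profiles are easily found, and these names are a description.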

How the data were processed

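RNA of 4 organoid cultures was read on Affymetrix arrays with perfect-match probes. Per the labels' protocols, 25 ng of total RNA with an integrity number of at least 9 was amplified and 8 µg of cDNA was labelled. Each probe set has 1 log2 value per array, as deposited by the authors. The submitters' processing notes name RMA and affy. Their version numbers were not given in the sources used here. This method subtracts background and equalises array distributions, so global shifts are removed and dim values are compressed.

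Of 45141 probe sets, 104 controls were left out, and 28898 had 1 gene in the platform annotation, 551 several and 15588 none. No symbol changed when matched by Entrez identifier to RefSeq for GRCm38.p6. Each gene took its brightest probe set, and a gene was dropped when its mean lay below 4.45 log2 units, the 40th percentile of probe sets. The comparison used limma 3.58.1 (R 4.3.3; lmFit, then eBayes with a trend), Benjamini-Hochberg adjusted over 11874 genes, or over all probe sets for a second probe set, at a two-sided 0.05. The main model, with genotype alone, has 2 residual degrees of freedom.

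The labels give each batch letter to 1 array of each genotype, which pairs the arrays. The batch differences of the genotypes correlated at 0.675 across genes. Results with the batch as a fixed block stand beside those of the main model. Both fits were tested on simulated data with known changes, where false calls of the block fit ran above its nominal rate. All per-sample columns were used. Precision is limited by having 4 arrays.

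The members and gene lists were chosen with earlier results of these data known. Besides the members, the rule named pathway genes past the threshold in either fit. In a list with none, it named the tested gene with the smallest p in the main model. Alternatives were the filter, the choice of probe set, the trend, median centring and leaving out each array.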

Additional observations from a re-analysis of the deposited data

How the results depend on the processing

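With the batch as a replicate block, the number of genes past the threshold was 817, against 77 with genotype alone. The limma differences of Notch1 (1.06), Jag1 (-1.17), Dll1 (-0.80), Hes6 (0.77) and Dtx4 (-0.58) then passed, while none of the 35 further pathway genes did. Atoh1, of the secretory list, passed as well. Combining the block with another choice was added after seeing the data. The count was then 822 without the _x_at and _s_at probe sets, 705 with the mean of all probe sets, 1004 with no filter, 694 with the filter at the 60th percentile, 422 with no trend and 1242 with each array centred on its median. Hes6 and Jag1 passed in 6 of these 7 block fits, Dll1 in 5 of 6, and Notch1 and Dtx4 in 5 of 7, and the cause was not tested. With no trend none of the 5 passed, with limma adjusted p-values of 0.0589 to 0.133, and when probe sets were averaged Notch1 (0.0914) and Dtx4 (0.0554) did not. The block differences that passed included 1.21 and 0.99 for Hes6 without the _x_at and _s_at probe sets and with the mean, and -1.23 for Jag1 with the mean. With median centring they were 1.07 for Notch1, -1.15 for Jag1, -0.79 for Dll1, 0.78 for Hes6 and -0.57 for Dtx4, and 2 other pathway genes passed.

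With genotype alone, no Notch gene passed under any of the alternatives run, and the count over all genes was 128 with median centring. Leaving out 1 array at a time gave 33 to 130 genes past the threshold. The differences then ran from 0.69 to 1.42 for Notch1, -0.27 to 0.36 for Notch2, -1.61 to -0.73 for Jag1, -1.07 to -0.53 for Dll1, -0.57 to 0.07 for Dll4, -0.53 to -0.14 for Hes1, 0.60 to 0.94 for Hes6, -0.68 to -0.42 for Nrarp and -1.07 to -0.09 for Dtx4. Notch2 changed sign when Gata6 null/Apc null A (-0.27) or Apc null A (-0.08) was left out, and Dll4 changed sign without Apc null A (0.067). The block cannot be tested on 3 arrays, which leave no residual degree of freedom. Leaving out all probe sets marked _a_at, _s_at or _x_at left no value for Hes6, and the 60th percentile filter none for Dll1. Dim genes near the array floor, Dll1 among them, have differences that RMA can compress.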
